A study of Mus musculus with 10 samples.

Results

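MHC2_high_2 is 1 of 8 fine states into which the depositors divided the macrophages of the mouse hippocampus. Its members were taken as every cell with the class name Macrophage and the fine state name MHC2_high_2, which gave 321 cells. They were 321 of 2886 macrophages with a state and 321 of 68914 annotated cells. The hippocampus was sampled 3 days after an injection into both hippocampi. The 4 vehicle mice are the controls. In 3 mice the injection held the full-length protein (FL-NfL) and in another 3 its coiled-coil form (CC-NfL), both at 1 mg/ml. NfL stands for neurofilament light chain, a structural filament protein of axons that appears outside neurons when these are damaged. The coiled coil is the rod-like stretch through which such filament proteins pair. Every mouse was a wild-type (WT) C57BL/6 male of 11 weeks, no group carried a transgene or a deletion, and the groups differed in the injected agent. No group received an unrelated protein, so an effect of NfL and an effect of injecting any protein cannot be told apart.

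MHC class II molecules are carried mainly by cells that show pieces of swallowed protein to CD4+ T cells. In the healthy brain such macrophages sit mostly at the borders, in the meninges, around vessels and in the choroid plexus, whereas microglia of the tissue itself carry little MHC class II at rest. Monocytes that enter a damaged brain can also take on an MHC class II-rich state. The state was proposed to be marked by H2-Aa, which encodes a chain of the MHC class II molecule, by Cd74, the invariant chain that guides that molecule to the compartment where it is loaded, and by Cd209a, a lectin receptor known from monocyte-derived dendritic-type cells. The deposited table holds names and map positions of cells and no gene values. The label was therefore not checked against these markers, and MHC2_high_2 is used here only as the depositors' name.

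In the clustering of macrophages the state was the same as a single cluster. All 321 members belonged to macrophage cluster 9, and that cluster held no other cell. The coarse state MHC2_high joined the state with MHC2_high_1 and held 676 cells, 321 of MHC2_high_2 and 355 of MHC2_high_1. In the clustering of all cells, the 321 members fell in cluster 32. Whether cluster 32 also held other cells was not counted. The state is a cluster of gene expression, so its separation from other macrophages follows from how it was drawn and is no test.

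A library had between 5434 and 17837 barcodes and between 3150 and 14141 annotated cells. The annotated share of the barcodes was 28.7% to 58.0% in the 6 libraries of batch b1 and 79.3% to 82.7% in the 4 libraries of batch b2, and it was lowest in FL-NfL replicate 1. Each batch, as named in the labels, held libraries of all 3 groups. Condition and batch in the table matched the labels for all 68914 annotated cells. Of 106835 distinct barcode sequences, 1414 occurred in more than 1 library. They included the barcodes of 9 members, of which 5 were annotated in the other library, 0 of them as a macrophage.

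MHC2_high_2 cells were rare after vehicle and several times more frequent after either form of NfL. Their mean share of annotated cells was 0.0713% ± 0.0436 (SD, n = 4) after vehicle, 0.878% ± 0.183 (SD, n = 3) after FL-NfL and 0.481% ± 0.311 (SD, n = 3) after CC-NfL. These means were 12.3 times the vehicle mean for FL-NfL and 6.76 times for CC-NfL. Vehicle mice gave 37.3% of all annotated cells and 5.61% of the MHC2_high_2 cells.

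The vehicle libraries held 1, 4, 9 and 4 MHC2_high_2 cells, in replicates 1 to 4. As a share of annotated cells these were 0.0258%, 0.122%, 0.0922% and 0.0455%. All 4 were low, and the first rests on a single cell. The FL-NfL libraries held 42, 21 and 110 cells, or 0.995%, 0.667% and 0.971% of annotated cells. All 3 lay above every vehicle library. The CC-NfL libraries held 6, 45 and 79 cells, or 0.139%, 0.747% and 0.559%. Replicate 1 was the low one of these. Its exact 95% interval (Clopper-Pearson), 0.0509% to 0.302%, overlapped that of vehicle replicate 2, 0.0331% to 0.311%. The interval covers counting error only. The values of the 6 NfL libraries and of the 4 vehicle libraries did not overlap.

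**Figure D1:**
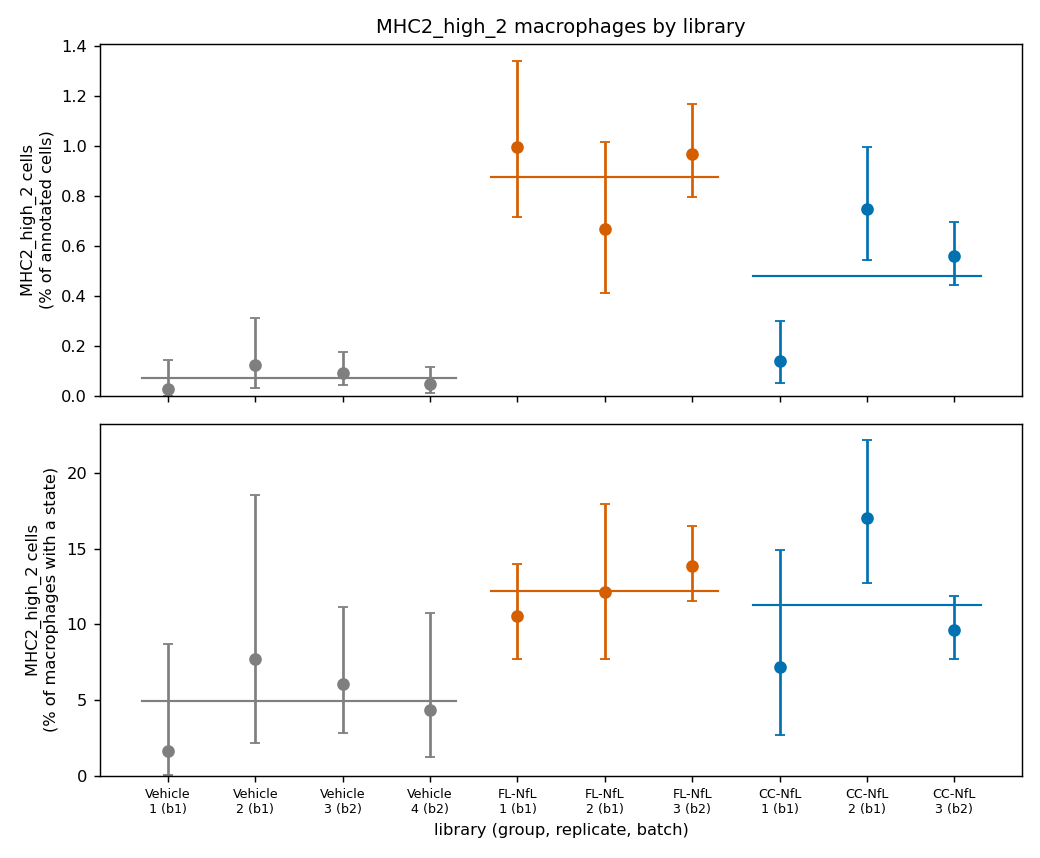
MHC2_high_2 cells in each library (x axis, with replicate number and batch) as a percentage of annotated cells (top) and of macrophages with a state (bottom). Points are libraries with exact 95% intervals for counting error, and horizontal lines are group means. In the top plot every NfL library lies above every vehicle library, with CC-NfL replicate 1 (0.139%) close to vehicle replicate 2 (0.122%), whereas in the bottom plot CC-NfL replicate 1 lies within the vehicle range.

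The difference from vehicle was tested as a log2 odds ratio, the log2 ratio of the odds that an annotated cell is MHC2_high_2, in limma with group and batch as terms. It was fitted for 15 cell classes and 6 macrophage states together, 21 items in all. After FL-NfL the state rose by 3.67 (SE 0.67, limma adjusted p = 0.00359). Of the 21 items, 5 were called in that comparison (23.8%), all of them higher. After CC-NfL it rose by 2.53 (SE 0.67, limma adjusted p = 0.0254), where 4 of 21 items were called (19.0%). Without CC-NfL replicate 2 or 3 that estimate was 2.02 (adjusted p = 0.0893) or 2.27 (adjusted p = 0.173). Without vehicle replicate 1 or 4 it was 2.19 (adjusted p = 0.0988) or 2.32 (adjusted p = 0.0621), so the CC-NfL call rests on each of these 4 libraries. For the mean of both proteins, named either NfL, the log2 odds ratio was 3.10 (SE 0.57, limma adjusted p = 0.00266), with 5 of 21 items called (23.8%). The calls for FL-NfL and for either NfL held when each library was left out in turn.

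The exact permutation test, free of batch, gave the same calls on the plain percentages. The two-sided exact permutation p was 0.0286 for FL-NfL and 0.0286 for CC-NfL, the smallest that 4 against 3 libraries allow. For either NfL it was 0.0143, and 0.0381 for each of the 3 after Benjamini-Hochberg adjustment over 4 contrasts. The difference was present in both batches. In batch b1 the mean share was 0.0737% after vehicle (n = 2), 0.831% after FL-NfL (n = 2) and 0.443% after CC-NfL (n = 2). In batch b2 it was 0.0688% after vehicle (n = 2), 0.971% in the single FL-NfL library and 0.559% in the single CC-NfL library. When libraries were exchanged only within their batch, the exact permutation p was 0.0556 for FL-NfL and for CC-NfL, the smallest that design allows, and 0.0222 for either NfL. After adjustment over 4 contrasts it was 0.0741 for each of the 3, so none passed with the permutation kept within batch.

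FL-NfL gave a larger mean share of MHC2_high_2 cells than CC-NfL, but the difference did not pass the test. The log2 odds ratio of FL-NfL against CC-NfL was 1.14 (SE 0.71), with a 95% interval from -0.48 to 2.76 (limma adjusted p = 0.437). In that comparison 0 of 21 items were called (0%). Before adjustment, limma gave 1 of the 21 a p under 0.05. In a quasi-binomial model 0 were called as well, and 3 had such a p before adjustment. The interval includes no difference as well as a clear excess after FL-NfL. In 3 against 3 libraries the exact permutation test cannot go below 0.100, and it gave 0.200.

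Macrophages as a whole also took a larger share of the annotated cells after NfL. Their mean share was 1.44% ± 0.265 (SD, n = 4) after vehicle, 7.36% ± 2.05 (SD, n = 3) after FL-NfL and 4.05% ± 1.96 (SD, n = 3) after CC-NfL. The MHC2_high_2 cells made up 0.806 of the 5.92 percentage points between FL-NfL and vehicle, or 13.6%. For CC-NfL they made up 0.410 of 2.60 percentage points, or 15.7%. Numbers of cells per hippocampus are not in the table, so a gain of MHC2_high_2 cells and a loss of other recovered cells cannot be told apart from shares alone.

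Among macrophages the state gained less. It was 4.92% ± 2.60 (SD, n = 4) of macrophages after vehicle, 12.2% ± 1.66 (SD, n = 3) after FL-NfL and 11.3% ± 5.15 (SD, n = 3) after CC-NfL. The vehicle libraries were at 1.61%, 7.69%, 6.04% and 4.35%, replicates 1 to 4, from only 52 to 149 macrophages each. The FL-NfL libraries were at 10.6%, 12.1% and 13.9%, all above the vehicle range. The CC-NfL libraries were at 7.14%, 17.0% and 9.65%, and replicate 1 lay below the highest vehicle library.

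The log2 odds ratio within macrophages was 1.42 (SE 0.54, limma adjusted p = 0.0347) after FL-NfL. That call was lost without any one of vehicle replicates 1 and 4 and FL-NfL replicates 1, 2 and 3, where the adjusted p ran from 0.0619 to 0.123. The estimate without vehicle replicate 1 was 0.960. After CC-NfL the log2 odds ratio was 1.24 (SE 0.54, limma adjusted p = 0.05004), just short of the threshold. Without CC-NfL replicate 1 it was 1.50 (adjusted p = 0.0452), and without vehicle replicate 2 it was 1.63 (adjusted p = 0.00804). For either NfL it was 1.33 (SE 0.46, limma adjusted p = 0.0228), a call that was lost without vehicle replicate 1 (0.867, adjusted p = 0.0752), vehicle replicate 4 (1.29, adjusted p = 0.0521) or FL-NfL replicate 3 (1.28, adjusted p = 0.0598). The exact permutation test on the percentages gave 0.0286 for FL-NfL, 0.0857 for CC-NfL and 0.0190 for either NfL, and after adjustment over 4 contrasts none passed (0.0571, 0.114 and 0.0571).

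These calls stand against a table in which nearly every state was called. Of the 6 states tested within macrophages, 5 were called for FL-NfL (83.3%), 5 for CC-NfL (83.3%) and 6 for either NfL (100%). The shares of the states sum to the whole, so they do not move independently. The MHC2_high_2 estimates were below the median of the 6 states, 1.74 for FL-NfL, 1.46 for CC-NfL and 1.60 for either NfL. FL-NfL against CC-NfL gave 0.19 (SE 0.57, 95% interval -1.12 to 1.50, limma adjusted p = 0.782) for MHC2_high_2, with 0 of 6 states called (0%). Before adjustment limma gave 0 of the 6 a p under 0.05. The single state called by the quasi-binomial model was not MHC2_high_2.

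The sister state MHC2_high_1 did not pass the test in any comparison with vehicle on the scale of annotated cells. Its mean share of annotated cells was 0.520% ± 0.272 (SD, n = 4) after vehicle, 1.04% ± 0.660 (SD, n = 3) after FL-NfL and 0.330% ± 0.115 (SD, n = 3) after CC-NfL. The FL-NfL libraries were at 1.23%, 1.59% and 0.309%, replicates 1 to 3. Of these, 2 lay above every vehicle library (highest 0.779%) and replicate 3 lay within the vehicle range. No CC-NfL library lay outside that range. Its log2 odds ratio was 0.79 (SE 0.68, limma adjusted p = 0.656) after FL-NfL and -0.62 (SE 0.68, limma adjusted p = 0.717) after CC-NfL, against the 3.67 and 2.53 of MHC2_high_2. Leaving out each library moved the MHC2_high_1 estimate from 0.105 to 1.64 for FL-NfL and from -1.30 to -0.27 for CC-NfL. The size of the FL-NfL estimate thus depended on single libraries. For either NfL its log2 odds ratio was 0.08 (SE 0.58, limma adjusted p = 0.933), with a sign that depended on the scaling and on which library was left out.

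Within macrophages the values of MHC2_high_1 pointed the other way from those of MHC2_high_2. Its mean share of macrophages was 36.6% ± 17.3 (SD, n = 4) after vehicle, 15.5% ± 12.4 (SD, n = 3) after FL-NfL and 10.2% ± 6.44 (SD, n = 3) after CC-NfL. Its log2 odds ratio was -1.99 (SE 0.96, limma adjusted p = 0.0706) after FL-NfL, -2.53 (SE 0.96, limma adjusted p = 0.0350) after CC-NfL and -2.26 (SE 0.82, limma adjusted p = 0.0234) for either NfL. MHC2_high_1 thus fell in the last 2 comparisons on the scale on which MHC2_high_2 rose for FL-NfL and either NfL. The call for either NfL was lost without any one of vehicle replicates 1, 3 and 4, FL-NfL replicate 3 and CC-NfL replicate 3 (adjusted p from 0.0584 to 0.0821). The call for CC-NfL was lost without any one of vehicle replicates 1, 3 and 4, FL-NfL replicate 1 and CC-NfL replicates 2 and 3 (adjusted p from 0.0532 to 0.165). In batch b1 alone the MHC2_high_1 estimates were -1.09 for CC-NfL (adjusted p = 0.335) and -0.75 for either NfL (adjusted p = 0.439). Set against MHC2_low cells in place of all other macrophages, MHC2_high_1 was at 0.30 for FL-NfL (adjusted p = 0.703), -0.35 for CC-NfL (adjusted p = 0.655) and -0.03 for either NfL (adjusted p = 0.969).

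**Figure D2:**
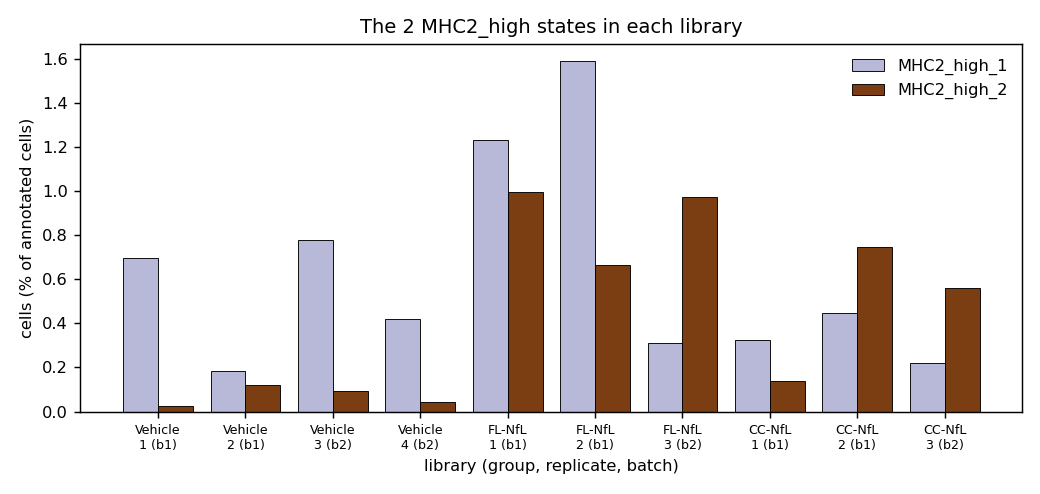
Cells of MHC2_high_1 (light bars) and MHC2_high_2 (dark bars) as a percentage of annotated cells (y axis) in each library (x axis, with replicate number and batch). The dark bar is the shorter one in all 4 vehicle libraries and the taller one in FL-NfL replicate 3 and in CC-NfL replicates 2 and 3.

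The balance between both states was compared directly as the share of MHC2_high_2 in the coarse MHC2_high state. The share was 16.0% ± 16.3 (SD, n = 4) after vehicle, 50.0% ± 23.6 (SD, n = 3) after FL-NfL and 54.8% ± 21.95 (SD, n = 3) after CC-NfL. The vehicle libraries were at 3.57%, 40.0%, 10.6% and 9.76%. Replicate 2 was the high one, with 4 of 10 cells and an exact 95% interval from 12.2% to 73.8%. The FL-NfL libraries were at 44.7%, 29.6% and 75.9%, and the CC-NfL libraries at 30%, 62.5% and 71.8%. In both NfL groups 1 of the 3 libraries lay below vehicle replicate 2, so the groups overlapped.

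The exact two-sided permutation p for this share was 0.0857 for FL-NfL, 0.0857 for CC-NfL and 0.0333 for either NfL, and after adjustment over 4 contrasts it was 0.114 for each. A shift from MHC2_high_1 to MHC2_high_2 therefore did not pass the test. For FL-NfL against CC-NfL the exact permutation p was 0.900. Within batch b2 the vehicle libraries were at 9.76% and 10.6%, FL-NfL at 75.9% and CC-NfL at 71.8%. Within batch b1 the vehicle libraries were at 3.57% and 40.0%, and the 4 NfL libraries lay between 29.6% and 62.5%.

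Beside the other states, the rise of MHC2_high_2 among annotated cells had the fourth largest estimate for either NfL of the 6 tested macrophage states. Activated_2 rose by 5.22 (SE 0.88, limma adjusted p = 0.00266), Activated_1 by 4.66 (SE 0.86, limma adjusted p = 0.00266) and Activated_3 by 3.50 (SE 0.45, limma adjusted p = 0.000752). The names are the depositors' and their genes were not measured here. Vehicle replicates 1 to 4 held 0, 2, 5 and 0 Activated_2 cells and 0, 6, 2 and 3 Activated_1 cells. With counts of 0, the size of these 2 estimates depends on the 0.5 added to the counts. MHC2_low was at 0.11 (SE 0.31, limma adjusted p = 0.907). Granulocytes and Proliferating, the remaining fine states, had a mean under 10 cells per library and were not tested. The class named other immune cells rose by 1.68 (SE 0.44, limma adjusted p = 0.0196). Microglia, the resident macrophages of the tissue, were at -0.03 and passed no test. MHC2_high_2 is thus 1 of 5 items called higher for either NfL, and the differences between these estimates were not tested in the model.

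**Figure D3:**
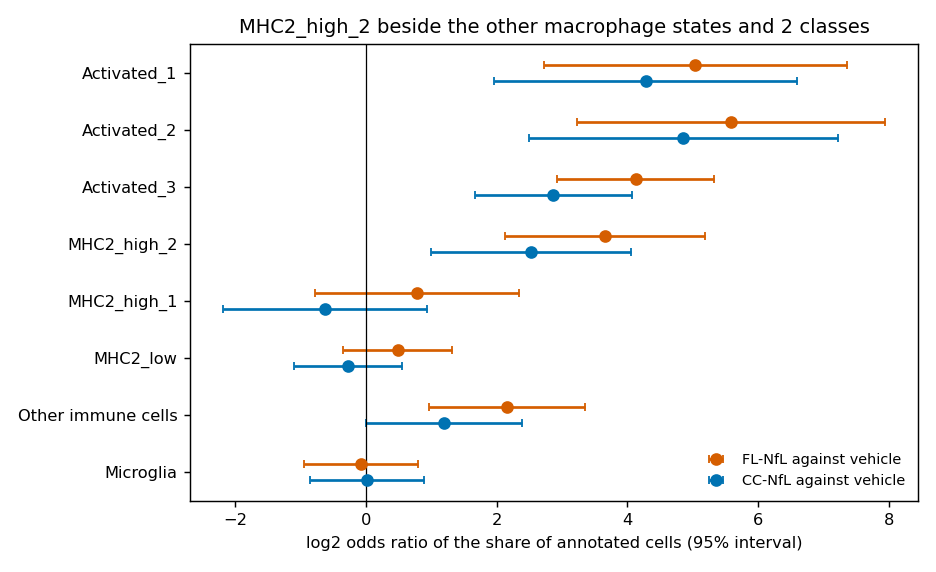
Log2 odds ratios of the share of annotated cells (x axis) for the 6 tested macrophage states, other immune cells and microglia (y axis), FL-NfL and CC-NfL each against vehicle, with 95% intervals from limma. MHC2_high_2 lies at 3.67 and 2.53 with intervals above 0, beside MHC2_high_1 at 0.79 and -0.62 with intervals that include 0.

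The number of MHC2_high_2 cells was also set against other cells of the same library, in 3 ratios chosen after the values had been seen. Per 1000 microglia there were 2.09 ± 1.05 (SD, n = 4) after vehicle, 29.0 ± 10.9 (SD, n = 3) after FL-NfL and 14.5 ± 8.97 (SD, n = 3) after CC-NfL. Per 100 other immune cells there were 22.05 ± 13.4, 61.0 ± 7.38 and 54.7 ± 16.6, with 6 of 6 NfL libraries above every vehicle library. Per 100 activated macrophages, by contrast, there were 42.6 ± 19.2, 22.2 ± 7.28 and 20.7 ± 13.6, and 4 of 6 NfL libraries lay below every vehicle library. For either NfL against vehicle the exact permutation p was 0.0190, 0.00476 and 0.0476 in turn, and 0.0686, 0.0571 and 0.0952 after adjustment over the 12 tests of these ratios. None of the 3 ratios therefore passed. The vehicle libraries held 5, 12, 15 and 7 activated macrophages and 12, 14, 24 and 29 other immune cells, replicates 1 to 4. Their values in the last 2 ratios thus rest on few cells.

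On the depositors' t-SNE map of macrophages the MHC2_high_2 cells formed a field between MHC2_high_1 and Activated_1. The map was drawn from the same gene expression as the states, so this describes the annotation and tests nothing. Of the 30 nearest macrophages of a member, 91.7% on average were of its own state, 4.56% MHC2_high_1, 3.39% Activated_1 and 0.208% Granulocytes. The nearest single macrophage was of the own state for 298 members, MHC2_high_1 for 15 and Activated_1 for 8. Members with only their own state among the 30 numbered 196 (61.1%). At least 1 MHC2_high_1 neighbour was found for 72 members (22.4%) and at least 1 Activated_1 neighbour for 55 (17.1%). Only 2 members had both, so the field met these 2 states on different sides.

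**Figure D4:**
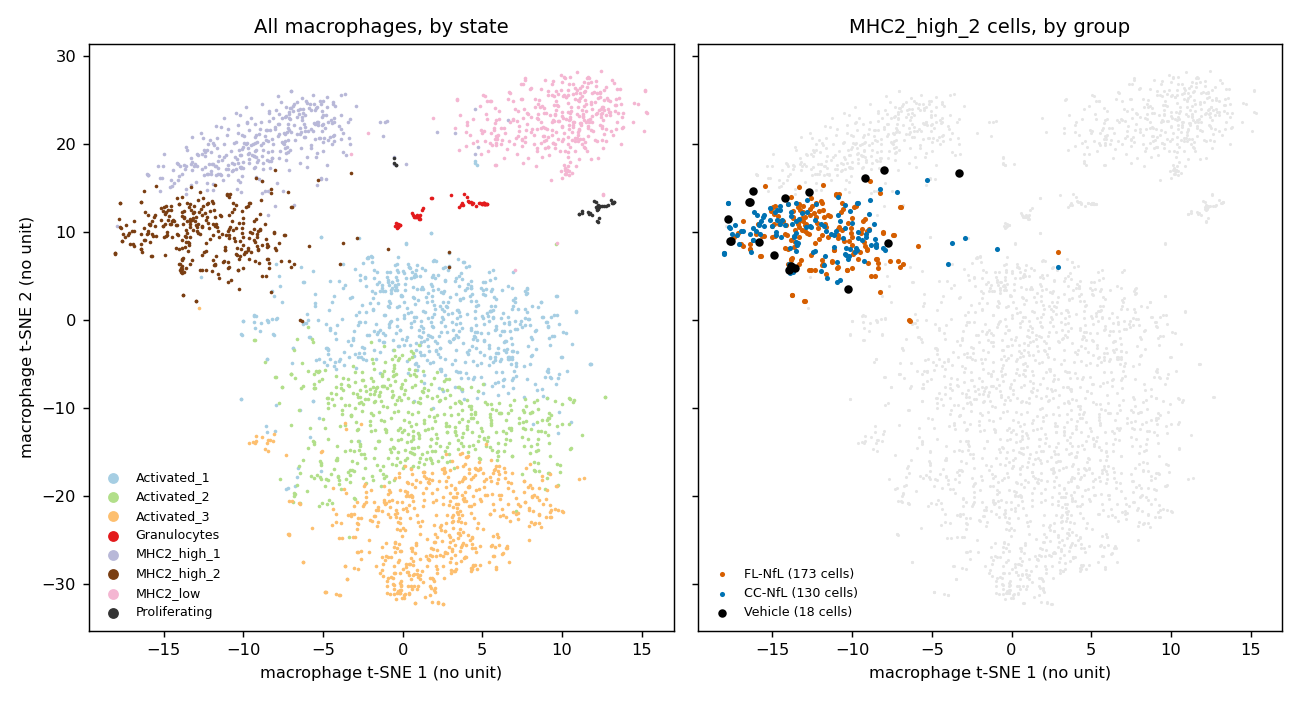
Depositors' t-SNE map of the macrophages with a state (both axes without unit), coloured by fine state (left) and with the MHC2_high_2 cells coloured by group over all macrophages in grey (right). The MHC2_high_2 cells lie between MHC2_high_1 and Activated_1, cells of FL-NfL (173) and CC-NfL (130) share the same field, and 11 of the 18 vehicle cells have an MHC2_high_1 neighbour.

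The places of the members in this field were also counted by group. Of the 18 vehicle cells, 11 (61.1%) had an MHC2_high_1 neighbour and 3 (16.7%) had only their own state around them. By library the first count was 1 of 1, 4 of 4, 4 of 9 and 2 of 4. After FL-NfL 32 of 173 cells (18.5%) had an MHC2_high_1 neighbour and 111 (64.2%) had only their own state. After CC-NfL these were 29 (22.3%) and 82 (63.1%) of 130. By library, the share next to MHC2_high_1 was 15.5% to 26.7% in the NfL mice and 44.4% to 100% in the vehicle mice. Neighbours came from all libraries, so a group with more member cells also has more of its own cells nearby, and these counts were not tested.

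Neighbours were then drawn only from other libraries and averaged over the members of a library with at least 5 of them. Other libraries of the same group stayed in the pool, so groups with more members still had more of their own group nearby. The own-state share of the 30 nearest macrophages was 87.9%, 92.9% and 91.8% in the FL-NfL libraries, and 82.2%, 95.04% and 92.2% in the CC-NfL libraries. The means differed by 1.03 percentage points and the libraries overlapped (exact permutation p = 0.900, where 3 against 3 libraries cannot go below 0.100). Vehicle replicate 3, the single vehicle library with 5 or more members, was at 63.0%, below all 6 NfL libraries. With 1 library in a group the exact permutation p cannot go below 0.143, the value it took. Activated states made up 3.33% of these neighbours in vehicle replicate 3. In the FL-NfL libraries they made up 4.60%, 6.67% and 3.91%, and in the CC-NfL libraries 17.2%, 1.85% and 2.11%. CC-NfL replicate 1 was the high one, from 6 member cells. FL-NfL minus CC-NfL was -2.002 percentage points with it, where the groups overlapped, and 3.08 without it. All 3 FL-NfL libraries then lay above both remaining CC-NfL libraries. The exact permutation p was then 0.100, the smallest that 3 against 2 libraries allow, and 0.333 after adjustment.

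On the map of all annotated cells the members kept among macrophages. Of their 30 nearest cells 99.2% were macrophages, and 0.810% were other immune cells, found next to 9 members. By state, 76.5% of these neighbours were MHC2_high_2, 14.4% MHC2_high_1 and 7.19% Activated_1. At least 1 MHC2_high_1 neighbour was found for 230 of the 321 members on this map. The order of the neighbouring states was thus the same on both maps, and the members were more mixed with MHC2_high_1 on the map of all cells.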

How the data were processed

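Live cells of both hippocampi, sorted with a live and a dead dye, were processed by droplet 3' single-cell RNA sequencing, 1 library per sample, per the labels' protocols. Reads were processed with Cell Ranger 6.0.1 and GRCm38, per the submitters' processing notes. The authors deposited a table of barcodes with class, cluster and state names and t-SNE positions. How cells were filtered and named, and how doublets were treated, is not given in these sources. Gene values were not analysed here. The library was the replicate. P-values set group differences against the variation between these libraries.

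The log2 odds of a state or class, with 0.5 added to both cell counts, were modelled on group and batch over all 10 libraries with limma 3.58.1 under R 4.3.3. Items averaging 10 or more cells a library entered, and p-values were adjusted by Benjamini-Hochberg within each contrast (threshold 0.05). The fit was checked on simulated counts that held no batch effect. Their vehicle share of MHC2_high_2 was the mean over all 10 libraries, so the low vehicle counts were not covered. All items were also given the same added spread between libraries. In the data the spread differed, with an SE for either NfL of 0.31 for MHC2_low and 0.86 for Activated_1. Unequal spreads were therefore not covered either. Single percentages were compared by two-sided exact permutation (scipy 1.17.1). Standard deviations are between libraries. Intervals of 95% are exact binomial for the percentages of a library and from limma for log2 odds ratios. Map neighbours were the 30 nearest macrophages. States and classes were named by a rule: all fine macrophage states, microglia, other immune cells, and the 3 commonest states around the members. The members, lists and tests were chosen with earlier results of these data known. Same-numbered FL-NfL and CC-NfL libraries correlated at 0.200, 0.500 and 0.442 in their deviations from group means and shared a batch. Vehicle replicate 3 and FL-NfL replicate 2, of different number and batch, reached 0.524, so these values do not establish a pairing. The replicate number was used as a block only in an alternative fit. Alternatives changed the model, scale, pseudocount, denominator, batch term, minimum, neighbours and libraries.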

Additional observations from a re-analysis of the deposited data

Results flagged for a closer look

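The share of macrophages among annotated cells was 1.05% in vehicle replicate 4, which stood apart from the 1.54% to 1.60% of the other vehicle libraries. This gap was large for a group of 4 by Dixon's test. Of 11 measures tested in the vehicle libraries this was the 1 that stood apart, and chance marks about 5% of such groups.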

How the results depend on the processing

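Groups had 3 or 4 libraries, with 18 vehicle members in all and no gene values. For MHC2_high_2 among annotated cells, estimates kept their direction in all 22 alternatives of each contrast (dropping shared barcodes was added after seeing the data). In batch b1 alone they were 3.52 (FL-NfL, adjusted p = 0.0806), 2.22 (CC-NfL, 0.405) and 2.87 (either NfL, 0.0909). The CC-NfL call was also lost in the quasi-binomial model (2.95, adjusted p = 0.0508), without pooling the spread (2.53, 0.0658) and on the arcsine scale (0.0416, 0.0927). Leaving out each library gave 3.33 to 4.14 (FL-NfL), 2.02 to 3.19 (CC-NfL), 0.42 to 1.68 (FL-NfL against CC-NfL) and 2.76 to 3.57 (either NfL).

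Within macrophages, FL-NfL was 1.44 (adjusted p = 0.0628) in the quasi-binomial model, 1.45 (0.190) in batch b1 and 1.42 (0.0580) with no minimum of cells. Either NfL was 1.34 (0.0736) in the quasi-binomial model and 1.45 (0.133) in batch b1. CC-NfL passed on the arcsine scale (0.123, adjusted p = 0.0480), with no batch term (1.21, 0.0493), over all macrophages (1.24, adjusted p just under the threshold) and against MHC2_low (2.79, 0.000959). FL-NfL against CC-NfL turned to -0.0152 in batch b1. Leaving out each library gave 0.96 to 1.82 (FL-NfL), 0.77 to 1.63 (CC-NfL), -0.0933 to 0.620 (FL-NfL against CC-NfL) and 0.87 to 1.72 (either NfL). The causes of these changes were not tested.

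Within macrophages MHC2_high_1 turned to 0.299 (FL-NfL) against MHC2_low. MHC2_high_1 among annotated cells turned to -0.0625 (FL-NfL) and -0.62 (either NfL) as a centred log ratio, to -0.41 (either NfL) in the quasi-binomial model and to 0.0623 (CC-NfL) in batch b1. Leaving out each library gave -0.60 to 0.56 for either NfL. MHC2_high_2 as a share of both MHC2_high states passed no adjusted test in its alternatives, and FL-NfL minus CC-NfL ran from -17.6 to 5.50 percentage points.

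Of 21 items, the quasi-binomial model called 3 in place of 5 for FL-NfL, 0 in place of 4 for CC-NfL (8 at an unadjusted p under 0.05) and 3 in place of 5 for either NfL. The centred log ratio called 4 higher and 2 lower for FL-NfL, 4 and 2 for CC-NfL, and 4 and 4 for either NfL, where log odds gave 5 and 0, 4 and 0, and 5 and 0. For either NfL it moved the median item from -0.08 to -0.77 and MHC2_high_2 to 2.39 (0.00573). CC-NfL calls fell to 0 (arcsine, batch b1, without CC-NfL replicate 3) or 1 (no pooling, without vehicle replicate 1).

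With vehicle, same-numbered libraries correlated at -0.35 to 0.36 in their deviations from group means, so their numbers were not read as a pairing. With the replicate number as a block in place of batch, MHC2_high_2 was 3.46, 2.32 and 2.89 among annotated cells (FL-NfL, CC-NfL, either) and 1.38, 1.197 (adjusted p = 0.0426) and 1.29 within macrophages. The CC-NfL value within macrophages thus passed with the block, where the main fit fell just short (adjusted p = 0.05004). For FL-NfL against CC-NfL, MHC2_high_2 was at 1.14 (adjusted p = 0.413) and 0.19 (0.787) with that block, and neither passed. MHC2_high_1 calls within macrophages were lost (CC-NfL -2.30, 0.0858; either NfL -2.03, 0.0811).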

Other observations

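The 13 macrophages without a fine state were placed beside other states. The commonest state among their 30 nearest macrophages on the map of all cells was Activated_3 for 10 and MHC2_low for 3. A Granulocytes neighbour on that map was found for 33 of the 321 MHC2_high_2 cells.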
